A study of Mus musculus with 4 samples.

Results

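The 10 genes described here, Acp5, Ctsk, Nfatc1, Dcstamp, Ocstamp, Tnfrsf11a, Mmp9, Oscar, Itgb3 and Calcr, were chosen by name as genes of the osteoclast and of cell fusion, out of 55450 annotated mouse genes. Every ATAC-seq peak overlapping the annotated gene body or the 10 kb on either side of it was taken. ATAC-seq uses a transposase to cut accessible chromatin, so that a peak marks open DNA. Bone marrow-derived macrophages (BMDMs), cultured from bone marrow with L929 conditioned medium, were compared at day 7 of culture by the study's account (6 to 8 days by the labels) between WT and H3.3cKO (cKO), with 2 libraries labelled as biological replicates for each genotype. By the study's account, WT mice carried floxed alleles of both genes for the histone variant H3.3 (H3f3a fl/fl, H3f3b fl/fl) without Cre, and cKO mice carried the same alleles together with LysM cre/cre, which places Cre under the Lyz2 locus of myeloid cells. Both groups thus share the floxed alleles. The study's methods name C57BL/6 mice of both sexes, aged 8 to 10 weeks, with no age or sex for single libraries. The labels do not tie a library to an animal, so every p-value below measures only the spread between these libraries.

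Osteoclasts are bone-resorbing giant cells that form when cells of the macrophage lineage fuse. The cytokine RANKL binds RANK, the product of Tnfrsf11a, and, together with co-stimulatory receptors such as OSCAR, raises the transcription factor NFATc1, which turns on the fusion proteins DC-STAMP and OC-STAMP, integrin beta 3, the calcitonin receptor and the enzymes that dissolve bone. L929 medium is a source of the macrophage growth factor M-CSF, and the labels name no added RANKL. BMDMs grown in this way are macrophages that can serve as osteoclast precursors.

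The 4 peak lists held 51955 to 64939 peaks, and merging peaks that overlapped by at least 1 bp gave 71243 union regions. Of these, 55 lay in the windows of the 10 genes. They came from 48 and 50 peaks in WT and 37 and 47 peaks in cKO (replicates 1 and 2). The cKO replicate 1 list was the shortest of the 4. Promoters of 11 of 12 macrophage markers were open in all 4 lists, and Spi1 had none. Of the markers of other cells, promoters of 1 of 8 neutrophil, 4 of 6 dendritic cell, 1 of 8 T and B cell, 1 of 8 erythroid and mast cell and 1 of 8 fibroblast and osteoblast genes were open in all 4. The dendritic cell promoters differed in opposite directions between genotypes, untested here: Flt3 (24.2 and 37.3 in WT, 47.0 and 53.9 in cKO) and Siglech (10.9 and 31.9, then 43.2 and 55.5) stood higher in cKO, and Zbtb46 (69.0 and 74.1, then 39.6 and 56.5) and Batf3 (43.1 and 55.1, then 6.81 and 28.4) lower, so that their summed percentile was 147 and 198 in WT, against 137 and 194 in cKO. Among the neutrophil markers the sum was 106 and 108 in WT, against 80.6 and 92.0 in cKO. S100a8 (76.5 and 78.3 in WT, 50.3 and 64.0 in cKO) and Camp (29.1 and 29.5 in WT, absent and 10.2 in cKO) were lower in cKO. The Ly6g promoter was open in cKO alone (30.3 and 17.8), and S100a9, Elane, Mpo, Ltf and Cxcr2 had no promoter peak. The T and B cell sum, which came from Ms4a1 alone, was 3.56 and 23.5 in WT, against 28.5 and 35.5 in cKO. The macrophage sum was 912 and 964 in WT, against 829 and 867 in cKO. Lyz2, the locus that carries Cre in cKO, had the largest gap in it (96.1 and 99.0 in WT, 57.4 and 59.4 in cKO). Csf1r, the gene for the M-CSF receptor (73.7 and 85.3 in WT, 56.4 and 61.4 in cKO), and Mertk (89.3 and 92.8, then 73.9 and 79.1) were also lower without overlap. Adgre1 overlapped between genotypes, and Cd68 alone stood higher in cKO (91.2 and 89.7 in WT, 92.7 and 92.7 in cKO). The part of these shifts in the results on the 10 genes was not tested. Among the fibroblast and osteoblast genes, the open promoter was that of Runx2, at 74.9 and 79.2 in WT, against 58.9 and 75.6 in cKO. The osteoblast genes Sp7, Bglap and Tnfsf11 (the gene for RANKL) and the T cell gene Cd3e had no promoter peak in any list. The study floxed exon 2 of H3f3a. A weak region in an exon of this gene was at percentiles 5.02 and 19.1 in WT and absent from both cKO lists. The promoter region of H3f3a was at 96.0 and 97.2 in WT, against 93.4 and 94.1 in cKO. The limma fit described below called it lower (-2.83 points, adjusted p = 0.00285). The region inside H3f3b still had a peak in both cKO lists, at 87.0 and 81.4 against 94.2 and 95.5 in WT. The same fit called it lower (-10.7 points, adjusted p = 1.94e-05). A second H3f3b region, at the annotated 5′ end of the gene, overlapped between genotypes (23.7 and 34.3 in WT, 28.7 and 42.5 in cKO). The paper reports that H3f3b deletion varied between cKO samples, from partial to complete. In these bulk libraries, fewer cells with an open site and less opening per cell cannot be told apart, and read depth is unknown.

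Strength was given as the percentile of a peak's area among all peaks of its own list, where 100 is the strongest peak and areas are the caller's significance summed along the peak. A region was called gained if both cKO lists and neither WT list held it, and lost in the opposite case. Regions held by all 4 lists were compared by limma over all 44820 such regions, with Benjamini-Hochberg adjustment and a call at an adjusted p below 0.05. The exact permutation test of 2 against 2 libraries cannot go below p = 0.333 and was not used for single regions.

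Most of the open regions at these genes were shared. Of the 55 regions, 33 (60%) were in all 4 lists, against 62.9% of all union regions. A single region (1.82%) was gained, at Acp5, against 3.72% of all regions, and 3 regions (5.45%) were lost, at Nfatc1 and Oscar, against 7.25%. Other combinations of lists held the remaining 18 regions (32.7%), against 26.1% of all regions. By limma, 1 of the 33 shared regions (3.03%) was higher in cKO, at Tnfrsf11a, against 5.68% of all shared regions, and 3 (9.09%) were lower, at Nfatc1 and Acp5, against 11.3%. Over all shared regions 2548 were higher and 5077 lower, so that 33.4% of calls were higher, and this became 50.02% (7409 higher and 7404 lower) with the lists trimmed to equal length. Without WT replicate 2 the balance turned, with 2733 higher and 1856 lower (59.6% higher). The median difference, cKO minus WT, was -0.17 percentile points over the 33 member regions and -1.10 over all shared regions. Neither sign was stable, since without single libraries (WT replicates 1 and 2, then cKO replicates 1 and 2) the median over all shared regions was -2.80, +0.29, +0.07 and -3.19, and that over the member regions was -2.98, +1.45, -0.24 and -2.81. With equal list lengths they were +0.09 and +1.43.

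**Figure D1:**
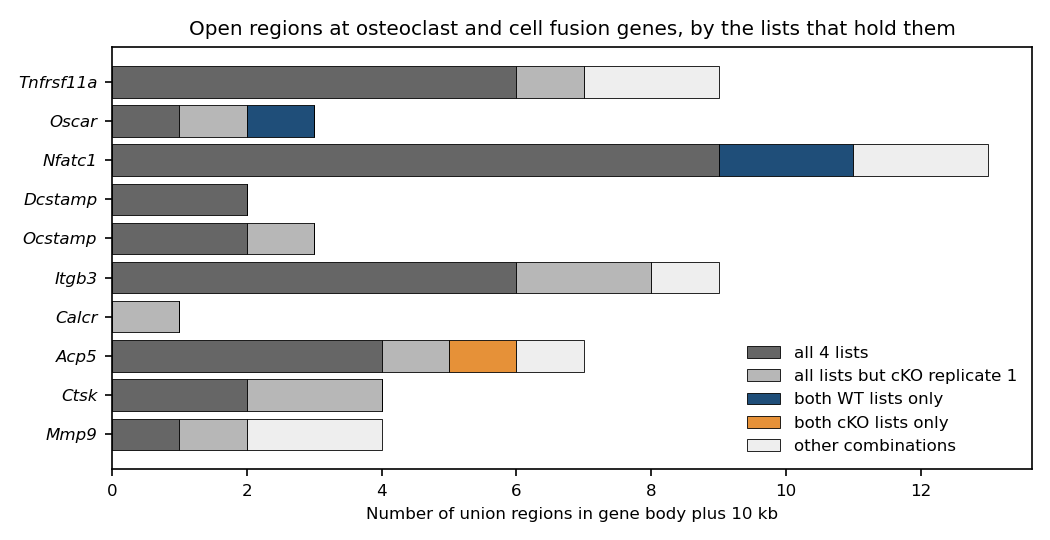
Number of union regions in the gene body plus 10 kb of each gene (horizontal axis), coloured by the peak lists that hold them. Nfatc1 had the most regions (13, of which 9 were in all 4 lists and 2 in WT lists only), and Calcr had a single region, missing from cKO replicate 1.

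By genes, 1 of the 10 had a gained region, against 11.1% of the 16367 protein-coding genes with any region in their window. Lost regions occurred at 2 of the 10, against 21.8%. At least 1 higher region was found at 1 gene, against 13.5%, and at least 1 lower region at 2 genes, against 21.9%. In 11 of the 33 shared regions (33.3%) both cKO values lay below both WT values, against 35.1% of all shared regions, and in 3 (9.09%) both lay above, against 22.2%. The groups overlapped in the other 19. The bars by gene show that the unshared regions were spread over 9 of the 10 genes, all but Dcstamp.

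**Figure D2:**
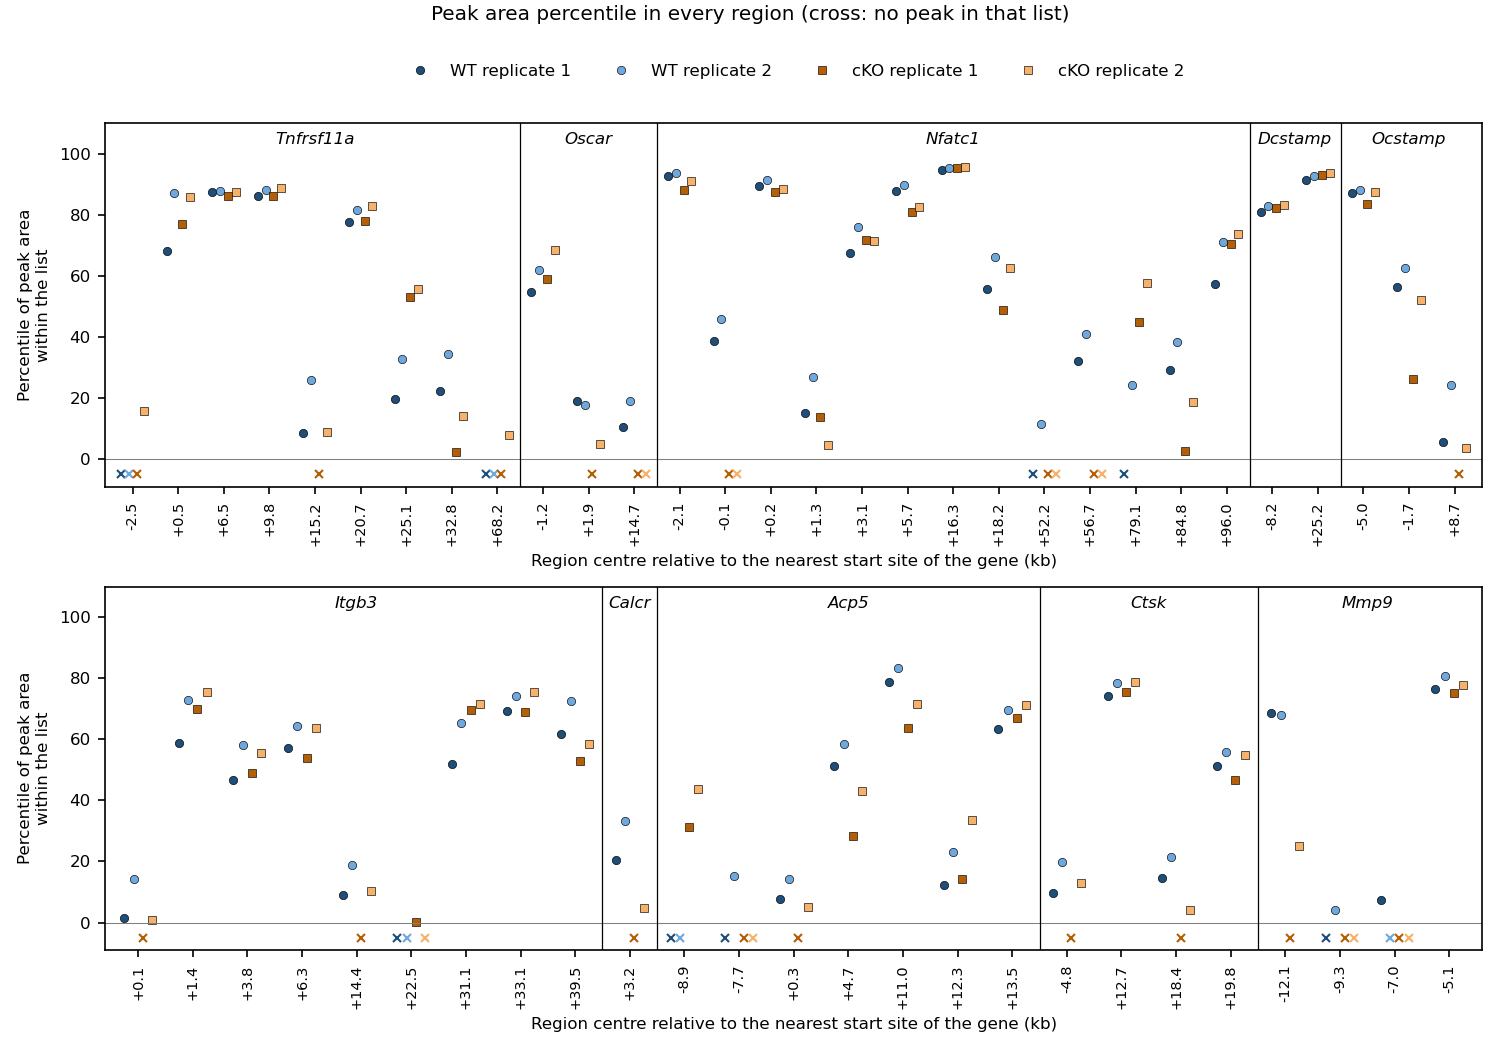
Percentile of the peak area within its list (vertical axis) for each of the 55 regions, ordered by gene and by distance in kb from the nearest start site of that gene (horizontal axis), with WT as circles, cKO as squares and a cross below 0 where a list held no peak. Most regions above the 80th percentile sit close together in all 4 lists, and crosses fall mostly at weak regions.

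Tnfrsf11a, which encodes RANK, was open in both genotypes at its promoter and along its introns, and held the single region of the 10 genes that rose in cKO. The gene lies on the forward strand of chromosome 1 (105780718 to 105847981), and its window had 9 regions, 6 of them in all 4 lists. The region over the start site was at percentiles 68.0 and 87.2 in WT, against 76.9 and 85.8 in cKO. The genotypes overlapped there (+3.81 ± 4.17 points, SE, adjusted p = 0.593), and the region consisted of 2 separate peaks in WT replicate 1 and cKO replicate 1. Without WT replicate 2 it was called higher (+13.4, adjusted p = 0.0224). Intronic regions 6.47, 9.83 and 20.7 kb inside the gene were strong in every list, between 77.6 and 88.7, and none passed the test.

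The region that rose lies in an intron 25.1 kb from the start site, at 105805642 to 105806082 (mm10). Its percentiles were 19.6 and 32.8 in WT (mean 26.2 ± 9.32, SD, n = 2) and 53.2 and 55.6 in cKO (mean 54.4 ± 1.69, SD, n = 2). Both cKO values stood above both WT values, and the difference was +28.1 points (SE 8.19, adjusted p = 0.0215). The call was lost without WT replicate 1 (+21.5, adjusted p = 0.281), without cKO replicate 1 (+29.3, adjusted p = 0.108) and without cKO replicate 2 (+26.9, adjusted p = 0.0935), and also when area was divided by peak width (+40.8, adjusted p = 0.0851). The next region of the same gene, 32.8 kb from the start, had the opposite order, at 22.2 and 34.3 in WT, against 2.19 and 14.2 in cKO, but did not pass (-20.0 ± 10.6 points, SE, adjusted p = 0.212) unless fitted with the replicate block (adjusted p = 0.0339). The other 3 regions were weak and not shared, and those 2.46 kb upstream (15.7) and 0.954 kb beyond the gene (8.04) were in cKO replicate 2 alone.

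The sequence around the summit of the risen region is shown because it is the one shared region of these genes called higher. It comes from the RefSeq genome of the same build. Consensus motifs of 6 factor families were searched (RUNX, AP-1, NFAT, PU.1, C/EBP and MITF). Capitals mark the single match, AACCACA, the core bound by RUNX factors.
Tnfrsf11a intron, higher in cKO (chr1:105805629-105805829, plus strand): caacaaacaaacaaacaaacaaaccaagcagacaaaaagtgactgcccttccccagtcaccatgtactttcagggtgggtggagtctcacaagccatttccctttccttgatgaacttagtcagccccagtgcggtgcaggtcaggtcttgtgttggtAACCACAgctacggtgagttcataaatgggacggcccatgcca

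**Figure D3:**
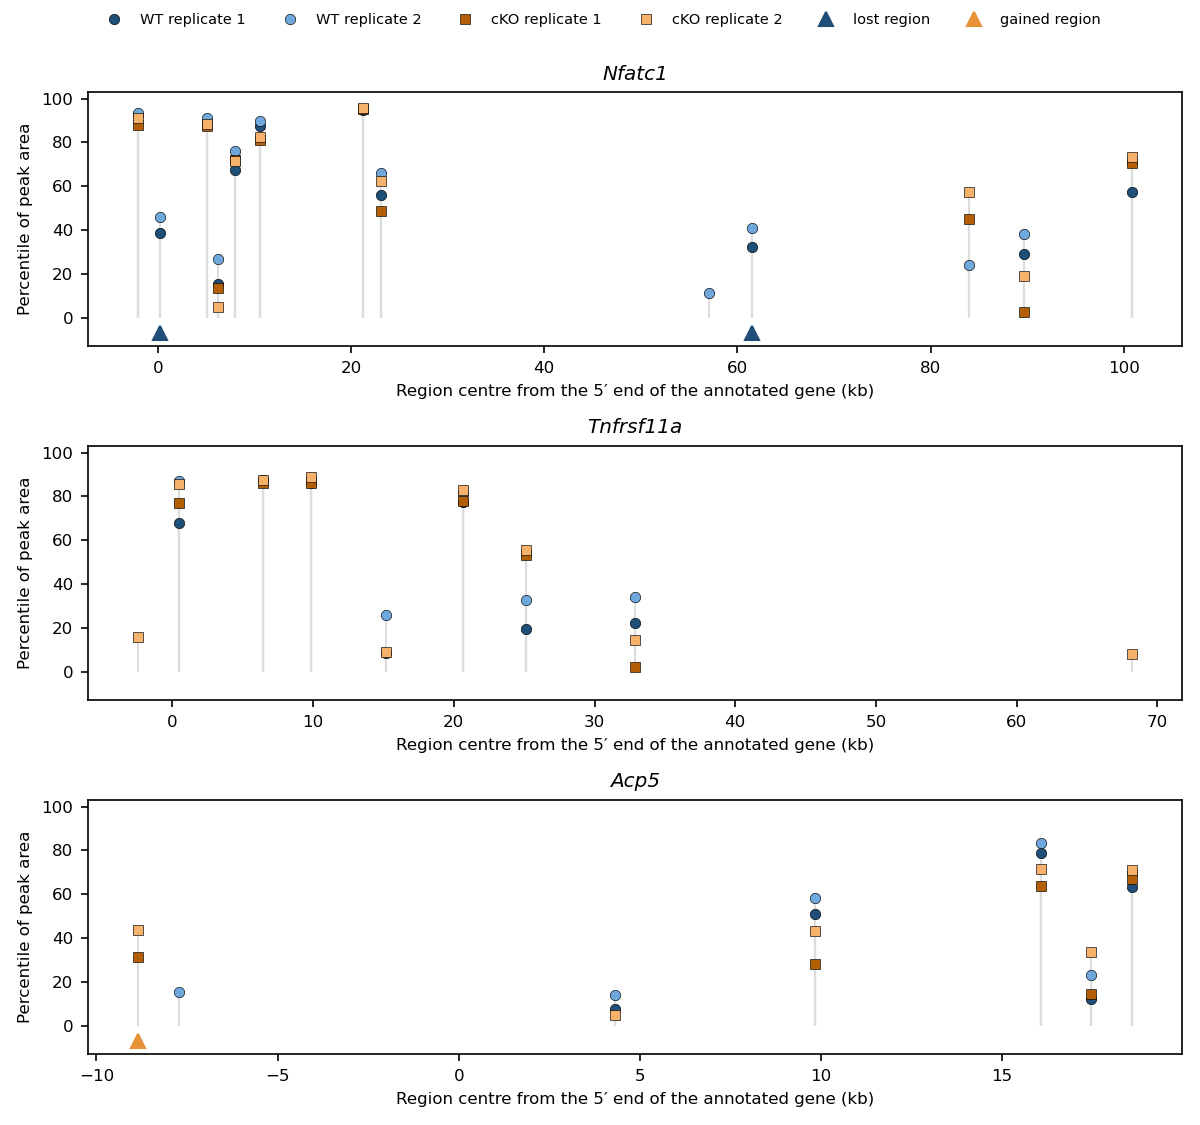
Percentile of the peak area (vertical axis) along Nfatc1, Tnfrsf11a and Acp5, with the distance of the region's centre from the annotated 5′ end in kb (horizontal axis), WT as circles, cKO as squares and triangles under gained or lost regions. Both Nfatc1 regions lost in cKO were below the 50th percentile in WT, whereas its regions above the 80th percentile kept a peak in all 4 lists, and at Tnfrsf11a the region 25.1 kb into the gene was higher in both cKO lists.

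Oscar encodes a collagen-binding receptor that co-stimulates osteoclast formation. The gene lies on the reverse strand of chromosome 7 (3609813 to 3616157), and 1 of the 3 regions in its window was lost in cKO. The only region in all 4 lists lay 1.25 kb upstream, inside the body and promoter of the neighbouring gene Ndufa3, at 54.8 and 61.8 in WT, against 59.1 and 68.5 in cKO (+5.51 ± 6.61 points, SE, adjusted p = 0.631). An intronic region was at 18.9 and 17.8 in WT, absent from cKO replicate 1 and at 5.06 in cKO replicate 2. The lost region, 8.42 kb beyond the end of the gene, was weak in WT, at 10.4 and 19.2. It was no longer lost when the lists were trimmed to equal length. Its sequence held no match to any of the motifs searched.
Region beyond Oscar, lost in cKO (chr7:3601239-3601439, plus strand): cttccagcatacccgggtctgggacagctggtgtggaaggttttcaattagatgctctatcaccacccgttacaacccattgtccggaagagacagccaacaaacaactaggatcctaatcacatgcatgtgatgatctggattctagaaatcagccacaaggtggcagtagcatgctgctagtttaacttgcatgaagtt

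Nfatc1, the transcription factor on which osteoclast formation depends, had the most regions and the most calls, all of them lower or lost in cKO. The gene lies on the reverse strand of chromosome 18 (80606205 to 80713071), and 9 of its 13 regions were in all 4 lists. Of these 9, 2 were called lower, against 11.3% of all shared regions, and none was called higher, against 5.68%. Of the 13, 2 further regions were lost, against 7.25% of all regions. With the most regions, Nfatc1 also had the most places in which a call could fall, and its counts were not tested against these shares. The annotation gives Nfatc1 an outer group of start sites (80712766 to 80713071, 3 transcripts) and an inner start site (80708173, the other 3), and the gene is known to be transcribed from alternative promoters.

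At the outer start sites, the region at 80712345 to 80713308 was in both WT lists, at 38.5 and 46.0, and in neither cKO list, so it was lost. The stretch just upstream of it, at 80714476 to 80715833 and centred 2.08 kb before the start, was strong in all 4 lists but lower in cKO, at 92.5 and 93.5 in WT, against 88.0 and 91.0 in cKO. The groups did not overlap there, and the difference of -3.54 points (SE 0.988) passed the test at an adjusted p of 0.0170. This call was lost without WT replicate 2 (-3.02, adjusted p = 0.113) and without cKO replicate 1 (-2.03, adjusted p = 0.233), by area per base (-20.2, adjusted p = 0.155) and by the -log10 p-value at the summit (-8.92, adjusted p = 0.315). The region over the inner start site was at 89.4 and 91.3 in WT, against 87.5 and 88.4 in cKO. Its order was the same, but the difference did not pass (-2.36 ± 1.12 points, SE, adjusted p = 0.161) unless fitted with the replicate block (adjusted p = 0.0443). Of the 11238 protein-coding genes compared, the promoter nearest to this inner one over the 4 percentiles was that of Gmppb, an enzyme of sugar nucleotide synthesis, at a distance of 0.938 points.

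Inside Nfatc1, an intronic region 5.68 kb from the inner start site (80701995 to 80702987) was at 87.6 and 89.6 in WT, against 80.9 and 82.5 in cKO. Both cKO values were lower than both WT values (-6.88 points, SE 1.63, adjusted p = 0.00583). The peaks themselves were narrower, 650 and 652 bp in cKO against 899 and 993 bp in WT, and the area per base was not lower (+5.90 points, adjusted p = 0.419), whereas the -log10 p-value at the summit was (-4.17 points, adjusted p = 0.00145). Without WT replicate 2 the call was lost (-5.88, adjusted p = 0.111). A second intronic region, 56.7 kb from the inner start site, was lost, at 32.2 and 40.8 in WT. The strongest region of all the genes here, an intronic one 16.3 kb from the inner start site, was at 94.7 and 95.4 in WT, against 95.2 and 95.6 in cKO. It differed by +0.34 points (SE 0.574, adjusted p = 0.745), less than its spread between replicates. A pair of regions far into the gene leaned in opposite directions without a call. One, 84.8 kb from the inner start, was at 29.1 and 38.3 in WT, against 2.48 and 18.8 in cKO (adjusted p = 0.128, called lower with equal list lengths at 0.0253 and with the replicate block at 0.0218), and the other, 79.1 kb from it, was absent from WT replicate 1, at 24.1 in WT replicate 2 and at 44.9 and 57.6 in cKO. At all 3 of the lost regions of the 10 genes no region was left when only peaks above the median area of their list were kept.

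The fusion genes Dcstamp and Ocstamp encode multipass membrane proteins that osteoclast precursors need in order to merge. Neither gene had a peak over a start site in any list, and none of their regions passed the test. Dcstamp (chromosome 15, 39745930 to 39760938, forward strand) had 2 regions, both in all 4 lists and both strong. The region 8.22 kb upstream was at 81.0 and 82.8 in WT, against 82.1 and 83.3 in cKO. The other, 25.2 kb from the start and inside the neighbouring gene Dpys, was at 91.2 and 92.6 in WT, against 92.8 and 93.6 in cKO. Both cKO values were above both WT values there, by +1.29 points (SE 0.785, adjusted p = 0.289), and the region was called higher only with the lists trimmed to equal length.

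Ocstamp (chromosome 2, 165393760 to 165400405, reverse strand) had 3 regions. The nearest to its start, 1.70 kb upstream, was at 56.2 and 62.4 in WT, against 26.3 and 52.1 in cKO. The groups did not overlap, but the cKO replicates lay far apart and the difference did not pass (-20.1 ± 8.43 points, SE, adjusted p = 0.109). It did pass by the -log10 p-value at the summit, on normal scores, with the replicate block and without cKO replicate 2. The region 4.98 kb upstream, inside Slc13a3, was at 87.2 and 88.1 in WT, against 83.5 and 87.5 in cKO and overlapped between genotypes. The third, 2.01 kb beyond the gene, was weak and missing from cKO replicate 1.

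These regions are shown because they are the open sites nearest to fusion genes that lacked a promoter peak. Capitals mark AP-1 (TGANTCA) and NFAT (TGGAAA) matches in the upstream Dcstamp region, C/EBP (TTGCNNAA) matches in the region inside Dpys, and AP-1 and PU.1 (GAGGAAGT) matches in the Ocstamp region.
Dcstamp upstream region (chr15:39737574-39737774, plus strand): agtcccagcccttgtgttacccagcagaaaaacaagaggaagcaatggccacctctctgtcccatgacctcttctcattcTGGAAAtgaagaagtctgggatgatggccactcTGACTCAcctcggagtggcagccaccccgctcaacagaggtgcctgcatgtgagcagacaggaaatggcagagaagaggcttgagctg
Dcstamp region inside Dpys (chr15:39770959-39771159, plus strand): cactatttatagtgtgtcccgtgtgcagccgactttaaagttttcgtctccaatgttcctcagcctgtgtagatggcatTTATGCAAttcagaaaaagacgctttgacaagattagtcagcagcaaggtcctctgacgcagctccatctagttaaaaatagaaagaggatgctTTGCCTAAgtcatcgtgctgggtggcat
Ocstamp upstream region (chr2:165402020-165402220, plus strand): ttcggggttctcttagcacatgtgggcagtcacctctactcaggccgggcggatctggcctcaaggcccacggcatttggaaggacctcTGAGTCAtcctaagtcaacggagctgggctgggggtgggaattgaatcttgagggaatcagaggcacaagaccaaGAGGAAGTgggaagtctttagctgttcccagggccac

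Itgb3, the beta chain of the adhesion receptor that seals the osteoclast to bone, had 9 regions on chromosome 11 (gene at 104608000 to 104670476, forward strand), and none passed the test as fitted here. Its start site was weakly open, at 1.39 and 14.3 in WT, absent from cKO replicate 1 and at 0.897 in cKO replicate 2. The 6 shared regions were all intronic. Among them, the region 31.1 kb from the start was at 52.0 and 65.5 in WT, against 69.7 and 71.5 in cKO, with cKO above WT (+11.8 ± 6.18 points, SE, adjusted p = 0.206), and it was called higher with equal list lengths (+15.5, adjusted p = 0.0251). The region 39.5 kb from the start had the opposite order, at 61.7 and 72.5 in WT, against 52.8 and 58.5 in cKO (-11.4 ± 6.59 points, SE, adjusted p = 0.258), and was called lower with the replicate block (adjusted p = 0.0371). In the remaining 4 shared regions the genotypes overlapped, with percentiles between 46.6 and 75.3.

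Calcr encodes the calcitonin receptor, a marker of the mature osteoclast. The gene lies on the reverse strand of chromosome 6 (3685680 to 3764714) and had the fewest regions, a single weak one in an intron, at 20.6 and 33.2 in WT, absent from cKO replicate 1 and at 4.92 in cKO replicate 2. It had no promoter peak in any list.

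Among the enzymes of bone resorption, Acp5 carried both a lower and a gained region, while Ctsk and Mmp9 had no call. Acp5 encodes the tartrate-resistant acid phosphatase used to stain osteoclasts, and its window on chromosome 9 (gene at 22126727 to 22135711, reverse strand) had 7 regions. The region next to its inner start sites was weak, at 7.62 and 14.2 in WT, absent from cKO replicate 1 and at 4.96 in cKO replicate 2. The region that fell lies 7.10 kb beyond the end of the gene, at 22119283 to 22119979. Its centre is 11.0 kb from the nearest Acp5 start site, and the next region farther out overlaps the promoter of the neighbouring gene Elof1. Which of the genes it serves was not tested. The region that fell was at 78.7 and 83.3 in WT (mean 81.0 ± 3.21, SD, n = 2) and 63.8 and 71.6 in cKO (mean 67.7 ± 5.53, SD, n = 2). Both cKO values were below both WT values, and the difference of -13.3 points (SE 4.02) passed at an adjusted p of 0.0259. Leaving out WT replicate 1 (-15.6, adjusted p = 0.0726), WT replicate 2 (-11.1, adjusted p = 0.288) or cKO replicate 1 (-9.44, adjusted p = 0.120) ended the call, as did area per base (-23.8, adjusted p = 0.206).

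On the other side of Acp5, 8.86 kb upstream, the region at 22144133 to 22145011 was gained, at 31.4 and 43.8 in cKO with no peak in either WT list. No region was left here when only peaks above the median area of their list were kept. Another upstream region, 7.72 kb before the start, was in WT replicate 2 alone, at 15.2. The region 0.842 kb beyond the gene was at 51.2 and 58.4 in WT, against 28.3 and 43.0 in cKO. The groups did not overlap, but the difference did not pass (-19.1 ± 8.01 points, SE, adjusted p = 0.109). It did pass with equal list lengths (adjusted p = 0.0172), by the -log10 p-value at the summit (0.0295) and with the replicate block (0.0173). The other 2 shared regions of the window lie at the promoter of the neighbouring gene Elof1 and overlapped between genotypes.

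The sequences of the region that fell and of the gained region are given to set them side by side. Capitals mark the matches in the lower region. Its matches to the AP-1 letters TGANTCA, where N is any base, had T or A at the centre. They lay at the summit (TGATTCA) and 30 bp from it (TGAATCA), and an NFAT match lay 62 bp from the summit. The gained region held no match to the motifs searched.
Region beyond Acp5, lower in cKO (chr9:22119602-22119802, plus strand): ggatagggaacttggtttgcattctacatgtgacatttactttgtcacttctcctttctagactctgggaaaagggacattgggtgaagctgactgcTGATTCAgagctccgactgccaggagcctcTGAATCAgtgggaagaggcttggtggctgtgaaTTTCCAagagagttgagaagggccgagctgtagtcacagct
Region upstream of Acp5, gained in cKO (chr9:22144333-22144533, plus strand): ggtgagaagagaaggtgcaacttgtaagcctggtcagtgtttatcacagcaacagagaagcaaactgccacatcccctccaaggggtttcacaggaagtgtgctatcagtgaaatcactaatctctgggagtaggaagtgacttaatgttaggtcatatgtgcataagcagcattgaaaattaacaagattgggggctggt

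Ctsk encodes cathepsin K, the protease that cuts bone collagen. The gene (chromosome 3, 95499256 to 95509362, forward strand) had no peak at its start site, and its nearest region, 4.76 kb upstream inside Arnt, was weak and missing from cKO replicate 1. The strongest region, 2.64 kb beyond the gene, was at 74.1 and 78.4 in WT, against 75.3 and 78.6 in cKO. It differed by +0.75 points (SE 3.36, adjusted p = 0.915). A second shared region, 9.74 kb beyond the gene, was at 51.2 and 55.8 in WT, against 46.7 and 54.7 in cKO, and here too the groups overlapped.

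Mmp9 encodes a gelatinase and is annotated at 164940780 to 164955850 on the forward strand of chromosome 2. Its 4 regions all lay upstream of the annotated basic start site (164948219). The one in all 4 lists, 5.15 kb before this start, was at 76.6 and 80.6 in WT, against 75.0 and 77.8 in cKO, with overlapping groups. The farthest, 12.1 kb before it, was at 68.5 and 68.0 in WT, absent from cKO replicate 1 and at 25.1 in cKO replicate 2. It could not be fitted with all 4 libraries, and without cKO replicate 1 it was called lower (-43.2 points, adjusted p = 0.000956). The 2 others were each in a single WT list, at 4.25 and 7.35.

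**Figure D4:**
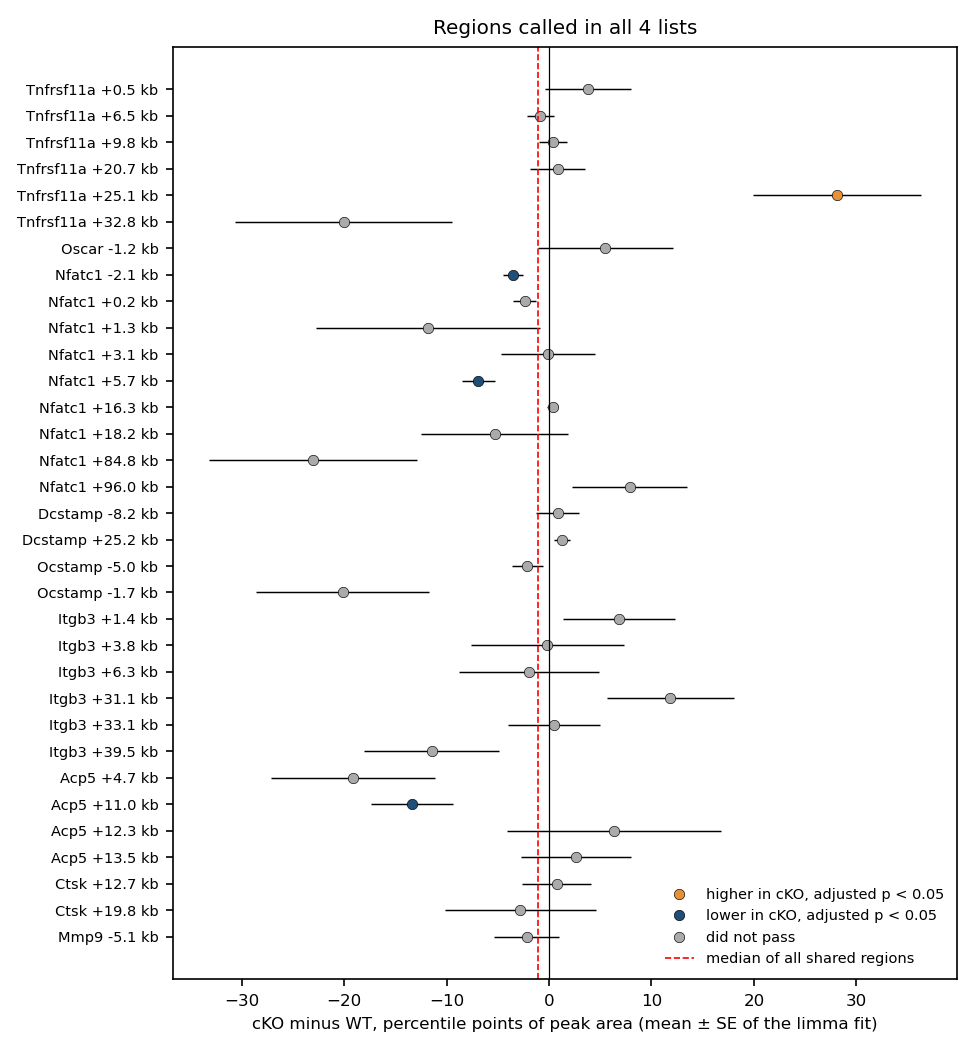
Difference in percentile points, cKO minus WT (horizontal axis, mean ± SE of the limma fit), for the 33 member regions in all 4 lists, with colour marking regions called at an adjusted p below 0.05 and a dashed line at the median of all shared regions. The Tnfrsf11a region at +28.1 stands farthest to the right, and the 3 called lower, at Nfatc1 and Acp5, lie between -13.3 and -3.54.

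A pair of features was shared by several genes. First, 10 of the 55 regions (18.2%) were in every list but cKO replicate 1, against 5.47% of all union regions. They belonged to 8 of the genes, all but Nfatc1 and Dcstamp, with 2 each at Ctsk and Itgb3. Apart from the Mmp9 region, all were at or below the percentile of 33.2 in the lists that held them. Since cKO replicate 1 had the shortest list, the part of list length in this pattern was not tested. No member region was missing from cKO replicate 2 alone, which was true of 0.399% of all regions. Second, the shared member regions had a median WT percentile of 67.1, against 64.1 in the windows of all protein-coding genes, 63.8 in those of the other pathway genes and 61.9 over all shared regions. The median width of member regions was 516 bp, against 466 bp, 502 bp and 444 bp in the same sets. These medians were not tested against each other. The plot of differences shows that the widest error bars belong to weak regions, such as that 84.8 kb into Nfatc1, and the narrowest to strong ones.

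A search for 6 consensus motifs, on both strands within 100 bp of the summit of each region's strongest peak, described what else the regions held. Matches to AACCACA (RUNX) were in 10 of the 55 regions (18.2%), against 8.38% of all regions, and 4 of these lay at Itgb3 and 3 at Tnfrsf11a. TGANTCA (AP-1), with any base at its centre, was in 11 (20.0%), against 16.6%. TGGAAA (NFAT) was in 10 (18.2%), against 15.9%. GAGGAAGT (PU.1) and TTGCNNAA (C/EBP) were in 5 regions each (9.09%), against 11.0% and 12.3%, and TCATGTG (MITF) was in 1 (1.82%), the region beyond Ctsk, against 5.06%. Some of these motifs have letters in common, such as GGAA in TGGAAA and GAGGAAGT, and overlap between matches was not tested. Regions of 1 gene share a locus, so these shares are descriptions with no test.

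Tnfrsf11a, Nfatc1 and Oscar were the genes with a promoter region in all 4 lists. Beside that of Nfatc1 given above, the promoter with the nearest 4 percentiles was Mbnl3, an RNA-binding splicing regulator, for Tnfrsf11a (distance 4.64 points) and Dnah11, an axonemal dynein, for Oscar (distance 1.81 points), the latter among 11237 genes. For each of these genes, the nearest of so many promoters is close by selection, and regulation in common was not tested.

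Around these 10 genes, 80 other genes of the osteoclast pathway were examined, and 79 had at least 1 region. Their windows held 691 regions, of which 464 were in all 4 lists. Gained regions numbered 19 (2.75%, against 3.72% of all regions) and lost regions 57 (8.25%, against 7.25%), but 32 and 40 with equal list lengths. Of the 464 shared regions, 26 (5.60%) were higher and 63 (13.6%) lower, against 5.68% and 11.3%, and their median difference was -2.23 points, against -1.10 for all shared regions. With equal list lengths 69 were higher and 85 lower. By genes, 16 of 79 (20.3%) had a gained region, against 11.1% of protein-coding genes with any region, and 35 (44.3%) a lost one, against 21.8%. A higher region was found at 21 (26.6%), against 13.5%, and a lower one at 33 (41.8%), against 21.9%. The median number of regions per gene was 7 for these genes and 3 for all protein-coding genes with any, so each had more regions in which a call could fall.

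By role, the 29 receptors and signalling genes had 8 higher (4.06%) and 28 lower (14.2%) of 197 shared regions. The 18 activating transcription factors had 7 higher (6.60%) and 16 lower (15.1%) of 106. The 14 inhibitors of the pathway had 8 higher (14.8%) and 6 lower (11.1%) of 54, with 5 gained (5.81%) and 9 lost (10.5%) of 86 regions. The 19 genes of acid secretion, enzymes and adhesion had 3 higher (2.80%) and 13 lower (12.1%) of 107, with no gained and 10 lost regions (6.58%) among 152. Over all shared regions 5.68% were higher and 11.3% lower. No difference between these groups was tested.

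Of the 26 higher regions, only the largest of each gene was kept, and the largest 2 rises were at inhibitors. A region 3.46 kb beyond Cyld, a deubiquitinase that restrains NF-kB signalling, was at 6.32 and 34.0 in WT, against 55.1 and 61.6 in cKO (+38.2 points, adjusted p = 0.00616). A region just beyond Lilrb4a, an inhibitory receptor with a close paralog that may share reads with it, was at 47.2 and 58.7 in WT, against 90.6 and 89.1 in cKO (+36.9 points, adjusted p = 2.41e-05). Trem2, a receptor that signals with DAP12, had a region 4.28 kb upstream that was at 28.8 and 25.3 in WT, against 61.9 and 64.1 in cKO (+36.0 points, adjusted p = 0.00257). In all 3 of these both cKO values lay above both WT values, but the regions were picked for large differences in the same values. The others named by size were at Prdm1, which represses inhibitors of osteoclast formation (+33.7 points), in an intron of Nfkb1 (+33.6) and in an intron of the tetraspanin gene Cd9 (+33.3), with adjusted p of 0.0125, 0.0188 and 0.00986.

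Of the 63 falls, only the largest of each gene was kept. The 6 largest of these were at Nfkb1, Ostm1 and 4 genes of the receptor and signalling list. That list held 197 of the 464 shared regions. Nfkb1, an NF-kB subunit, also had a region 8.20 kb upstream that was at 76.8 and 80.1 in WT, against 24.5 and 36.6 in cKO (-47.9 points, adjusted p = 0.000131). The kinase gene Syk had an intronic region at 53.6 and 53.3 in WT, against 3.20 and 9.98 in cKO (-46.9 points, adjusted p = 0.00103). Src, a kinase needed for the ruffled border, had one at 75.9 and 73.2 in WT, against 27.7 and 35.1 in cKO (-43.2 points, adjusted p = 0.000336). The WT and cKO values did not overlap in any of these, but the regions were picked for large differences in the same values. Intronic regions of Ostm1, a partner of the lysosomal chloride transporter (-45.6), of Ppp3ca, a calcineurin subunit that activates NFAT (-39.4), and of Cd47 (-38.9) completed the list, with adjusted p of 0.000881, 0.00219 and 0.00390. Each of these differences was larger in size than any at the shared regions of the 10 genes themselves. They were picked by size from 464 shared regions, against 33 at the 10 genes, so this does not compare the 2 sets.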

How the data were processed

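The 4 ATAC-seq libraries were grouped by genotype from their titles. The authors aligned paired reads to mm10 with Bowtie2 2.5.1 and called peaks in each library with Genrich (version not given in the sources used here), and replicates were not pooled. Read filters, duplicate removal and any shift of read ends are not given in the sources used here. The deposited signal column is the area under the significance curve of a peak, and its lowest value is just above 200 in each list, so weaker sites are absent from a list. The deposited −log10 p-value is that of the summit. The deposited score column, the area scaled to peak length and capped, was not used beyond describing it, since 82.6% to 87.2% of peaks sat at its maximum. No counts were used, so no sequencing interval can be given.

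Peaks overlapping by at least 1 bp were merged, and a region was taken as called where a list had a peak in it. Gene bodies came from GENCODE M21 and start sites and exons from its basic set, with promoters from 1000 bp upstream to 100 bp downstream. Coordinates are 1-based. Percentiles of the strongest peak were fitted with limma 3.58.1 (lmFit, eBayes with trend) over all regions in all 4 lists, and tested on simulated data first. Sequences and motif searches used the RefSeq genome of the same build, in windows of 201 bp. Python (numpy 2.4.6, pandas 2.3.3, matplotlib 3.10.9) did the rest. Alternatives were a stricter peak threshold, equal list lengths, a window of 2 kb, a cover of at least 50%, other peak measures, normal scores, a replicate block and leaving out each library.

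All members, at most 12 pathway genes (the largest differences among called regions, at most 6 in each direction), the nearest promoter profile of each member with a promoter region in all 4 lists, and the deleted genes are named. For each pathway gene, only the largest difference in each direction was kept for this choice. The members, gene lists and tests were chosen with earlier results of these data known. Over shared regions, replicate 1 minus replicate 2 correlated between genotypes with Pearson's r = 0.295, and with only 2 pairs the replicate numbers are not taken to pair the libraries.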

Additional observations from a re-analysis of the deposited data

How the results depend on the processing

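With 2 libraries a genotype, the calls depended on the processing. Under a stricter peak threshold (peaks above the median area of their list) members had 0 higher and 0 lower regions (4 of 23 at an unadjusted p under 0.05, and the 3 called lower otherwise at adjusted p from 0.0565 to 0.0847), pathway genes had 11 gained, 22 lost, 11 higher and 30 lower, and all regions had 952 higher and 1930 lower. Equal list lengths gave members 5 lost, 3 higher and 5 lower, pathway genes 32 gained, 40 lost, 69 higher and 85 lower, and all regions 7409 higher and 7404 lower, and moved the median difference of all shared regions from -1.10 to 0.0885. With a window of 2 kb, 0 member regions were gained, since the Acp5 region lies farther out. By area per base, limma called 0 regions higher and 0 lower for members, pathway genes and all regions alike, with 9562 of all regions and 9 of 33 member regions at an unadjusted p under 0.05. There the Nfatc1 intronic region called lower reversed to +5.90 points (adjusted p = 0.419). The cause of these shifts was not tested.

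The fit with the replicate block, for replicate numbers that share only a number (r = 0.295 over 2 pairs), gave members 9 lower regions, pathway genes 59 higher and 125 lower, and all regions 5760 higher and 10295 lower. The additional member regions called lower with the block were at Acp5, Nfatc1, Ocstamp, Tnfrsf11a and Itgb3. The 4 member regions called without the block were called with it.

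Leaving out 1 library at a time gave members 33 to 43 shared, 1 to 3 gained, 3 to 13 lost, 0 to 2 higher and 0 to 4 lower regions, pathway genes 20 to 51 gained, 60 to 99 lost, 19 to 35 higher and 26 to 71 lower, and all regions 1251 to 2733 higher and 1856 to 6644 lower, with higher calls outnumbering lower ones without WT replicate 2 alone. The 13 lost member regions were those without cKO replicate 2, and the 43 shared ones those without cKO replicate 1. The gained Acp5 region and the lost Nfatc1 and Oscar regions kept their calls in all of these, but this outcome was fixed in advance. By the definition used, a call that holds over all 4 lists still holds when 1 list is left out. Where a genotype is left with 1 library, it is assumed to vary like the other. The lists keep no read depth, so absence from a list may reflect a site just under the caller's limit.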
